A study of Bos grunniens x Bos taurus and Bos grunniens with 6 samples.

Results

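The genes that make, carry, sense and clear retinoic acid, together with STRA8, the gene that retinoic acid switches on at the entry into meiosis, were examined in testis tissue of cattle-yak and yak. Members were the rows of the deposited expression table whose symbol was STRA6, RDH10, ALDH1A1, ALDH1A2, CYP26B1, RARA, RARB, RARG or STRA8. These 9 symbols stood on 10 of the 18918 genes in the table, because ALDH1A1 was given to 2 gene models. The cattle-yaks (TES5, TES6 and TES7) were F1 males of a Jersey cattle sire and a Gannan yak dam, a cross whose males are sterile, and the yaks (Yak8, Yak9 and Yak10) were Gannan males. Every animal was 4 years old and gave 1 library of total testis RNA, so n = 3 in each group. The groups were kept in different counties, and the study's methods give castration as the source of the cattle-yak testes and euthanized animals as that of the yak testes, while the labels give castration for both, so these conditions cannot be told apart from the cross.

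Vitamin A reaches a cell as retinol, which retinol dehydrogenases such as RDH10 turn into retinal and retinal dehydrogenases of the ALDH1A family turn into retinoic acid. Retinoic acid then binds the nuclear receptors RARA, RARB and RARG, which pair with retinoid X receptors on DNA, and CYP26 enzymes break it down. In the testis this supply is known to drive the differentiation of spermatogonia and, through STRA8 and its partner MEIOSIN, the start of meiosis. The enzymes are known from both somatic and germ cells, so a library of whole tissue sums over several sources.

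Values are FPKM, fragments on a gene scaled by its length and by the depth of the library, so levels can be set side by side between genes. The libraries held 11093280 to 11747136 fragments on genes in cattle-yak and 12873944 to 13016878 in yak, as recovered from the FPKM values. The members had from 56 fragments (STRA6 in Yak9) to 18333 (the longer ALDH1A1 model in TES7). Groups were compared with limma on log2 (FPKM + 1), a scale on which the log2 (foldchange) of genes with low FPKM is understated. The test ran on the 15042 genes whose FPKM averaged 0.5 or more over the 6 libraries, and a call needed a p under 0.05 after Benjamini-Hochberg adjustment over all of them and a log2 (foldchange) beyond 1 in either direction. Over the tested genes the log2 (foldchange) had a median of 0.51, and median-of-ratios scaling of the libraries moved it to 0.01.

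The cell makeup of the libraries differed between the groups, as their marker genes showed. The 5 markers of elongating spermatids in the table summed to 13.3 to 68.8 FPKM in cattle-yak and 8133 to 9917 in yak, and all 5 were called lower, as were both round spermatid markers in the table. All 12 markers of Sertoli cells, the somatic nurse cells of the tubule, were called higher, with sums of 2701 to 2851 FPKM against 533.5 to 614. No marker of either list was at 0 in a whole group. In such bulk tissue, fewer cells of a type cannot be told apart from less RNA per cell.

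All 10 members passed the filter on low values. In cattle-yak 7 of them were called higher and 1 was called lower, while 33.4% of all tested genes were called higher and 20.8% lower. The genes called higher were both ALDH1A1 models, CYP26B1, RARG, STRA8, RARA and RDH10, and the gene called lower was ALDH1A2. RARB and STRA6 did not pass. Cattle-yak and yak values did not overlap for 8 of the 10 members, a share near the 84.1% found over all tested genes. After median-of-ratios scaling 4 members were still called higher (both ALDH1A1 models, CYP26B1 and RARG, against 17.7% of all genes) and ALDH1A2 was still called lower (against 27.7%).

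**Figure D1:**
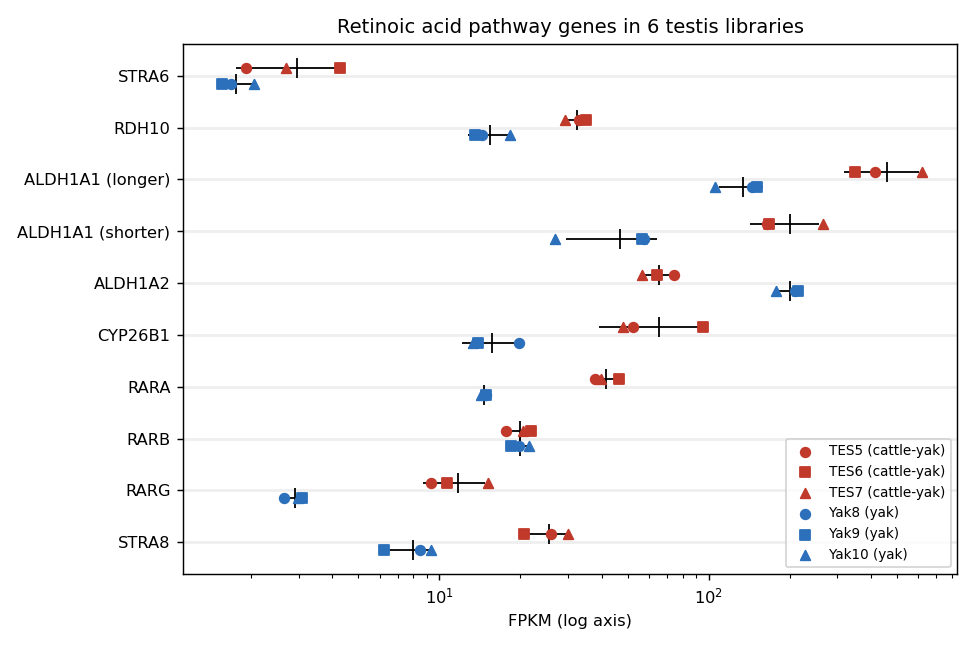
FPKM (log axis) of each member in each library, in red for cattle-yak and in blue for yak, with the group mean as a vertical tick and the SD as a bar. ALDH1A2 is the member with its cattle-yak values on the left, at 56.7 to 74.6 FPKM against 177 to 215, while the values of RARB and STRA6 overlap between the groups.

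STRA6, the membrane channel that takes up retinol from its plasma carrier, was the member with the lowest level in both groups. Its FPKM was 1.91 in TES5, 4.27 in TES6 and 2.70 in TES7, against 1.69 in Yak8, 1.56 in Yak9 and 2.05 in Yak10. TES5 lay within the yak range, so the groups overlapped. The log2 (foldchange) was 0.48 (95% interval −0.05 to 1.004, limma adjusted p = 0.0815). It was 0.25 without TES6 and 0.68 without TES5, where the adjusted p was 0.0175 but the value stayed under 1. A gene outside the list with a related name stood out when the table was read. STRA6L, known as a second receptor for the retinol carrier, had 4 to 7 fragments in a cattle-yak library and 472 to 611 in a yak library, that is 0.197 ± 0.074 FPKM against 18.4 ± 2.34 (SD, n = 3). Its log2 (foldchange) was −4.01 (limma adjusted p = 2.3e-07), and it was chosen after its values were seen.

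RDH10, which carries out the oxidation of retinol to retinal, had 33.1, 34.9 and 29.2 FPKM in TES5, TES6 and TES7. The yak values were 14.4 in Yak8, 13.5 in Yak9 and 18.4 in Yak10. Every cattle-yak library was above every yak library, with a ratio of the mean FPKM of 2.10. The log2 (foldchange) of 1.03 (SE 0.14, limma adjusted p = 1.7e-04) was the smallest among the called members. It was 0.44 after median-of-ratios scaling, and came to 0.95, 0.98 and 0.99 without Yak9, TES6 and Yak8, each time under the threshold of 1.

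The retinal dehydrogenases moved in opposite directions. The longer of the 2 gene models with the symbol ALDH1A1 (ENSBGRG00000022195, 2548 bases) had 413 FPKM in TES5, 349 in TES6 and 620.3 in TES7, against 144 in Yak8, 151 in Yak9 and 105 in Yak10. It was the member with the highest level in cattle-yak, where it ranked between 87 and 190 among all genes, and between 770 and 1214 in yak. Its group means were 461 ± 142 and 134 ± 24.7 FPKM (SD, n = 3), a ratio of 3.45, with a log2 (foldchange) of 1.75 (SE 0.22, limma adjusted p = 1.2e-04). The shorter model (ENSBGRG00000011174, 1615 bases) had 164, 168 and 266 FPKM in TES5, TES6 and TES7. In yak it had 57.4 in Yak8, 56.6 in Yak9 and 26.9 in Yak10, so the groups did not overlap there either. The log2 (foldchange) of the shorter model was 2.11 (SE 0.31, limma adjusted p = 2.6e-04). TES7 was the highest cattle-yak library and Yak10 the lowest yak library in both models, and the longer model had 2.08 to 2.67 times the FPKM of the shorter one in 5 libraries and 3.92 times in Yak10. Both rows carry the same functional annotation, retinal dehydrogenase activity included, and whether they are near-identical copies, between which fragments may be divided, or pieces of 1 gene was not tested, so both the values of each alone and their sum are uncertain.

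ALDH1A2, the retinal dehydrogenase known from germ cells of the adult testis, was the member with the highest single-gene level in yak. Its FPKM was 208 in Yak8, 215 in Yak9 and 177 in Yak10, and 74.6 in TES5, 64.1 in TES6 and 56.7 in TES7. The cattle-yak libraries were thus all under the lowest yak library, and the mean in yak was 3.07 times that in cattle-yak. The log2 (foldchange) was −1.61 (SE 0.13, limma adjusted p = 7.4e-06), and −2.22 after median-of-ratios scaling. It was called lower under each of the scalings, pseudocounts and filters tried, and without each animal in turn. The round spermatid markers in the table, ACR and SPACA1, had −5.04 and −5.07. ALDH1A2 kept 1423 to 1909 fragments in each cattle-yak library. Which cell types these came from, and the part of lost cell types in the fall of ALDH1A2, was not tested.

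Within each library, the summed ALDH1A1 models had 7.73 times the FPKM of ALDH1A2 in TES5, 8.07 times in TES6 and 15.6 times in TES7. In yak the corresponding ratios were 0.969 in Yak8, 0.968 in Yak9 and 0.746 in Yak10. With the models summed, ALDH1A1 was a little under ALDH1A2 in yak, and with the longer model alone it was lower still, its 105 to 151 FPKM lying below the 177 to 215 of ALDH1A2. In cattle-yak the longer model alone was above ALDH1A2 in each library, and the summed models held 85.4% to 93.7% of the summed FPKM of ALDH1A1, ALDH1A2 and ALDH1A3. The log2 ratio of ALDH1A2 to ALDH1A1 differed by −3.48 between the groups, from 0.17 ± 0.22 in yak to −3.31 ± 0.57 in cattle-yak (SD, n = 3). With the longer model alone the difference was −3.38. Such a ratio does not depend on how libraries are scaled against each other. The groups did not overlap, and the exact permutation test (two-sided) gave p = 0.1, the smallest value that 3 animals against 3 allow, or 0.133 after adjustment over the 4 within-library values tested. The sum of ALDH1A1, ALDH1A2 and ALDH1A3 was 591 to 946 FPKM in cattle-yak and 316 to 425 in yak. ALDH1A3 itself ranged from 3.0 FPKM in TES7 to 24.2 in TES5, a wider spread than between the group means of 12.3 and 4.38, and was not called.

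**Figure D2:**
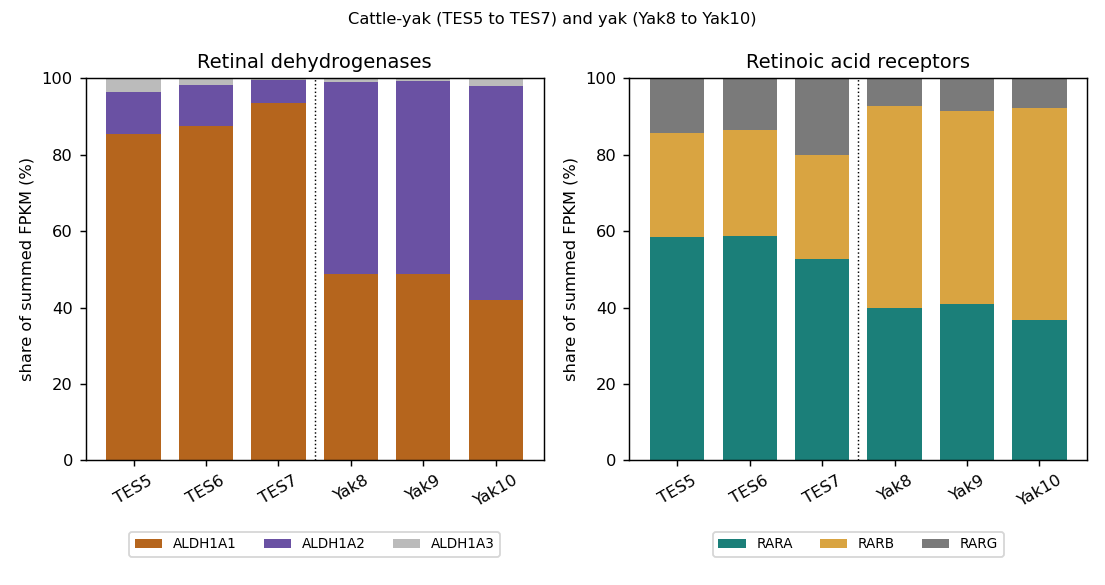
Share (%) of the summed FPKM in each library held by ALDH1A1 (2 gene models summed), ALDH1A2 and ALDH1A3 on the left, and by RARA, RARB and RARG on the right, with a dotted line between the groups. ALDH1A2 holds 6.0% to 11.04% in the cattle-yak libraries and 50.3% to 56.1% in the yak libraries, and RARB 27.1% to 27.7% against 50.7% to 55.6%.

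CYP26B1, the enzyme that breaks down retinoic acid and keeps germ cells of the fetal testis out of meiosis, had 52.3 FPKM in TES5, 95.1 in TES6 and 48.0 in TES7. In yak it had 19.8 in Yak8, 13.96 in Yak9 and 13.3 in Yak10. All cattle-yak libraries were above all yak libraries, and TES6 had 1.98 times the level of TES7. The group means were 65.1 ± 26.0 and 15.7 ± 3.57 FPKM (SD, n = 3), a ratio of 4.15, with a log2 (foldchange) of 1.94 (SE 0.26, limma adjusted p = 1.7e-04). The other genes of the family were low, with CYP26A1 at 0.549 to 1.73 FPKM over the 6 libraries and not called, and CYP26C1 at 0.147 FPKM or less. Set against the summed FPKM of ALDH1A1 and ALDH1A2 in the same library, the log2 ratio of CYP26B1 was −3.64 in TES5, −2.61 in TES6 and −4.29 in TES7. In yak it was −4.37 in Yak8, −4.92 in Yak9 and −4.54 in Yak10. TES7 came close to Yak8, and the mean difference of 1.09 had p = 0.1 (exact permutation test, two-sided, adjusted 0.133). Without TES6, the library with the highest CYP26B1, it was 0.64.

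The receptors differed from each other in their change. RARA, the receptor known from Sertoli cells, had 38.0, 46.6 and 39.7 FPKM in TES5, TES6 and TES7, against 14.9, 14.9 and 14.2 in Yak8, Yak9 and Yak10. The yak values of RARA spread least of all members, with a coefficient of variation of 2.58%. Its log2 (foldchange) was 1.43 (SE 0.11, limma adjusted p = 6.8e-06), and 0.84 after median-of-ratios scaling, under the threshold of 1. RARG, known from differentiating spermatogonia, had the lowest level of the receptors, with 9.32, 10.7 and 15.2 FPKM in TES5, TES6 and TES7 and 2.66, 3.08 and 3.0 in Yak8, Yak9 and Yak10. Its groups did not overlap, the ratio of the means was 4.03, and the log2 (foldchange) was 1.68 (SE 0.19, limma adjusted p = 5.1e-05).

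RARB, in many tissues itself a target of retinoic acid, was the receptor with the highest level in yak. It had 17.6 FPKM in TES5, 22.0 in TES6 and 20.4 in TES7, and 19.7 in Yak8, 18.5 in Yak9 and 21.6 in Yak10. The values of the groups overlapped, and the log2 (foldchange) was 0.00 with a 95% interval of −0.28 to 0.29 (limma adjusted p = 0.984). Against the median of all tested genes this was a difference of −0.51, and after median-of-ratios scaling the value was −0.59. Together the 3 receptors summed to 64.9 to 79.3 FPKM in cattle-yak and 36.5 to 38.8 in yak. RARA held 58.5%, 58.8% and 52.7% of this sum in TES5, TES6 and TES7, and 40.0%, 40.8% and 36.6% in Yak8, Yak9 and Yak10. The difference of 17.5 percentage points had p = 0.1 (exact permutation test, two-sided, adjusted 0.133), and it rests on RARB, since RARA held 5.46 percentage points less in cattle-yak when only RARA and RARG were summed.

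STRA8, required in germ cells for the meiotic programme, was higher in the sterile cross. Its FPKM was 26.0 in TES5, 20.6 in TES6 and 29.95 in TES7, against 8.47 in Yak8, 6.24 in Yak9 and 9.28 in Yak10. The lowest cattle-yak library had more than 2 times the FPKM of the highest yak library. The means were 25.5 ± 4.69 and 8.0 ± 1.57 FPKM (SD, n = 3), a ratio of 3.19, and the log2 (foldchange) was 1.56 (SE 0.18, limma adjusted p = 7.1e-05). After median-of-ratios scaling it was 0.99, just under the threshold of 1, with an adjusted p of 0.0012. On that scale STRA8 was the member nearest to the threshold.

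**Figure D3:**
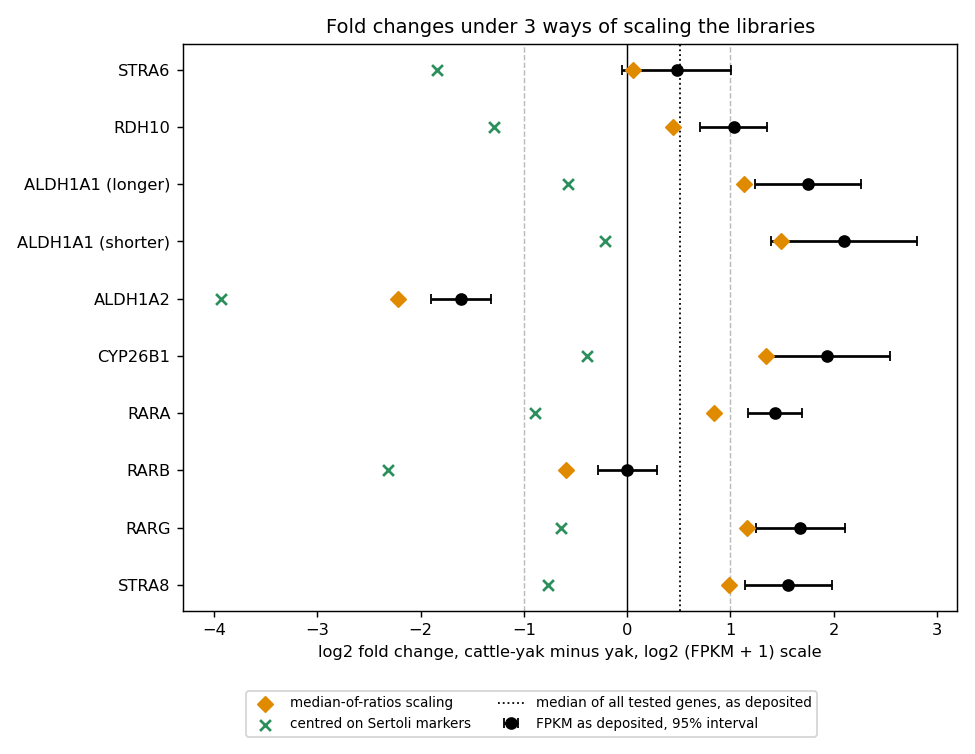
Log2 (foldchange) of each member, cattle-yak minus yak, with its 95% interval for FPKM as deposited, and the values after median-of-ratios scaling and after centring each library on 12 Sertoli markers. Dashed lines mark the threshold of 1 and the dotted line the median of all tested genes (0.51), and only ALDH1A2 lies beyond a dashed line on the same side under all 3 scalings. The Sertoli centring takes the same amount off every gene.

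Ordered by mean FPKM, cattle-yak ran from the longer and the shorter ALDH1A1 model over ALDH1A2, CYP26B1, RARA, RDH10, STRA8 and RARB to RARG and STRA6. Of these neighbours, ALDH1A2 and CYP26B1, RDH10 and STRA8, and STRA8 and RARB had overlapping ranges. In yak the order was ALDH1A2, the longer and the shorter ALDH1A1 model, RARB, CYP26B1, RDH10, RARA, STRA8, RARG and STRA6. There the ranges of RARB and CYP26B1, of CYP26B1 and RDH10, and of RDH10 and RARA overlapped.

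The germ cells that could carry STRA8 were read from markers in the same libraries. Of 6 tested spermatogonia markers 3 were called higher (ZBTB16, UCHL1 and SALL4) and none lower, with a median log2 (foldchange) of 1.39. The 8 listed markers summed to 199 to 264 FPKM in cattle-yak and 53.15 to 66.0 in yak. Most of these sums was UCHL1, which alone had 178 to 231 FPKM in cattle-yak and 48.4 to 58.8 in yak. Of 7 spermatocyte markers 1 was called higher (SYCP3) and 1 lower (PIWIL1), with a median of 0.00. After median-of-ratios scaling SYCP3 was not called and PIWIL1 and SYCP2 were called lower. Over all tested genes 33.4% were called higher and 20.8% lower as deposited, and 17.7% and 27.7% after that scaling. Measured against the mean log2 (FPKM + 1) of the spermatogonia list within each library, STRA8 stood 2.55 higher in TES5, 1.57 in TES6 and 2.44 in TES7, and 1.89 in Yak8, 1.58 in Yak9 and 1.83 in Yak10. TES6 fell below all yak libraries, so the groups overlapped (difference 0.42, exact permutation test, two-sided, p = 0.4, adjusted 0.4). The difference was 0.24 without TES5, 0.73 without TES6 and 0.29 without TES7, and −0.07 with a pseudocount of 0.1. The mean of the spermatogonia list includes PAX7 and LIN28A, which were under the minimum for the test. The log2 values of such low genes depend on the pseudocount. Measured against the spermatocyte list, STRA8 was higher in cattle-yak by 1.90 on the log2 scale (exact permutation test, p = 0.1, the smallest possible). The mean of that list includes PIWIL1, with a log2 (foldchange) of −3.32, while its other markers had −0.64 (SYCP2) to 1.10 (SYCP3). The difference without PIWIL1 was not computed. The part of these cell types in the change of STRA8 was not tested.

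Of 14 other genes of meiotic entry and spermatogonial differentiation, all tested, 4 were called higher in cattle-yak and none lower. Over all tested genes the shares were 33.4% higher and 20.8% lower. In the list 10 did not pass both thresholds, and the median log2 (foldchange) was 0.74 beside 0.51 for all genes. The genes that rose were DMRT1 (1.95), which is known to hold STRA8 back in spermatogonia, NANOS3 (1.77), KIT (1.72), the receptor of differentiating spermatogonia, and SOHLH1 (1.69), a transcription factor of the same cells. BHMG1, the older symbol of MEIOSIN, had 13.4, 9.47 and 14.3 FPKM in TES5, TES6 and TES7 and 5.14, 6.36 and 6.13 in Yak8, Yak9 and Yak10. Its groups did not overlap, but the log2 (foldchange) of 0.94 was under 1 (limma adjusted p = 1.1e-03). MEIOC (a symbol on 2 genes, the more abundant used), which with YTHDC2 sustains the meiotic prophase, had −0.93 and YTHDC2 0.15. REC8, the meiotic cohesin, had 4.22 to 5.51 FPKM in cattle-yak and 4.06 to 4.25 in yak, with overlapping groups and a log2 (foldchange) of 0.17. After median-of-ratios scaling the same 4 genes were called higher, and MEIOC and the RNA-binding RBM46 were called lower (−1.53 and −1.05). The shares over all tested genes were then 17.7% higher and 27.7% lower.

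Of 8 genes of retinoid uptake, storage and binding, 7 were in the table and 6 were tested. Of these 4 were called higher in cattle-yak and none lower, with a median log2 (foldchange) of 1.28. The shares over all tested genes were 33.4% higher and 20.8% lower. CRABP2, which carries retinoic acid to its receptors, had 5.33, 13.5 and 10.04 FPKM in TES5, TES6 and TES7 and 0.320, 0.321 and 0.129 in Yak8, Yak9 and Yak10, a log2 (foldchange) of 3.004 (limma adjusted p = 2.2e-05). The other genes called were RBP4, the plasma carrier of retinol (1.69), CRABP1, a cytosolic binder of retinoic acid (1.33), and FABP5, a fatty acid binder that also takes up retinoic acid (1.24). CRABP1 and FABP5 were under 1 after median-of-ratios scaling. LRAT (a symbol on 2 genes, the more abundant used) and DGAT1, which esterify retinol for storage, had −0.28 and −0.35 and were not called.

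Of 17 other retinoid enzymes 15 were in the table and 10 were tested. They split, with 2 called higher and 2 lower and a median log2 (foldchange) of 0.21. For this list and the receptor partners, the shares over all tested genes were 33.4% higher and 20.8% lower. DHRS3, which returns retinal to retinol, rose from 7.43 ± 0.53 to 29.7 ± 2.61 FPKM (SD, n = 3), a log2 (foldchange) of 1.86 (limma adjusted p = 2.4e-06). RDH13 also rose (1.21), though it had 0.86 after median-of-ratios scaling. DHRS4, a reductase that acts on retinal, fell from 109 ± 4.32 to 28.1 ± 7.80 FPKM (SD, n = 3), by 1.96 on the log2 scale (limma adjusted p = 2.2e-05), and RDH11, a further reductase of this kind, fell by 1.45. In the receptor partners and coregulators, 8 of 9 genes were tested, 3 were called higher, none lower, and the median log2 (foldchange) was 0.83. RXRA, the retinoid X receptor that pairs with the RARs, had the largest log2 (foldchange) of that list, 2.30, from 6.68 ± 0.71 to 36.9 ± 3.36 FPKM (SD, n = 3). The coactivators NCOA3 and NCOA1 had 1.99 and 1.31, while RXRB had 0.71 and NRIP1, a corepressor, −0.83, both short of the threshold. After median-of-ratios scaling NCOA1 had 0.71 and was not called, and NRIP1 was called lower. RXRG was under the minimum for the test.

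**Figure D4:**
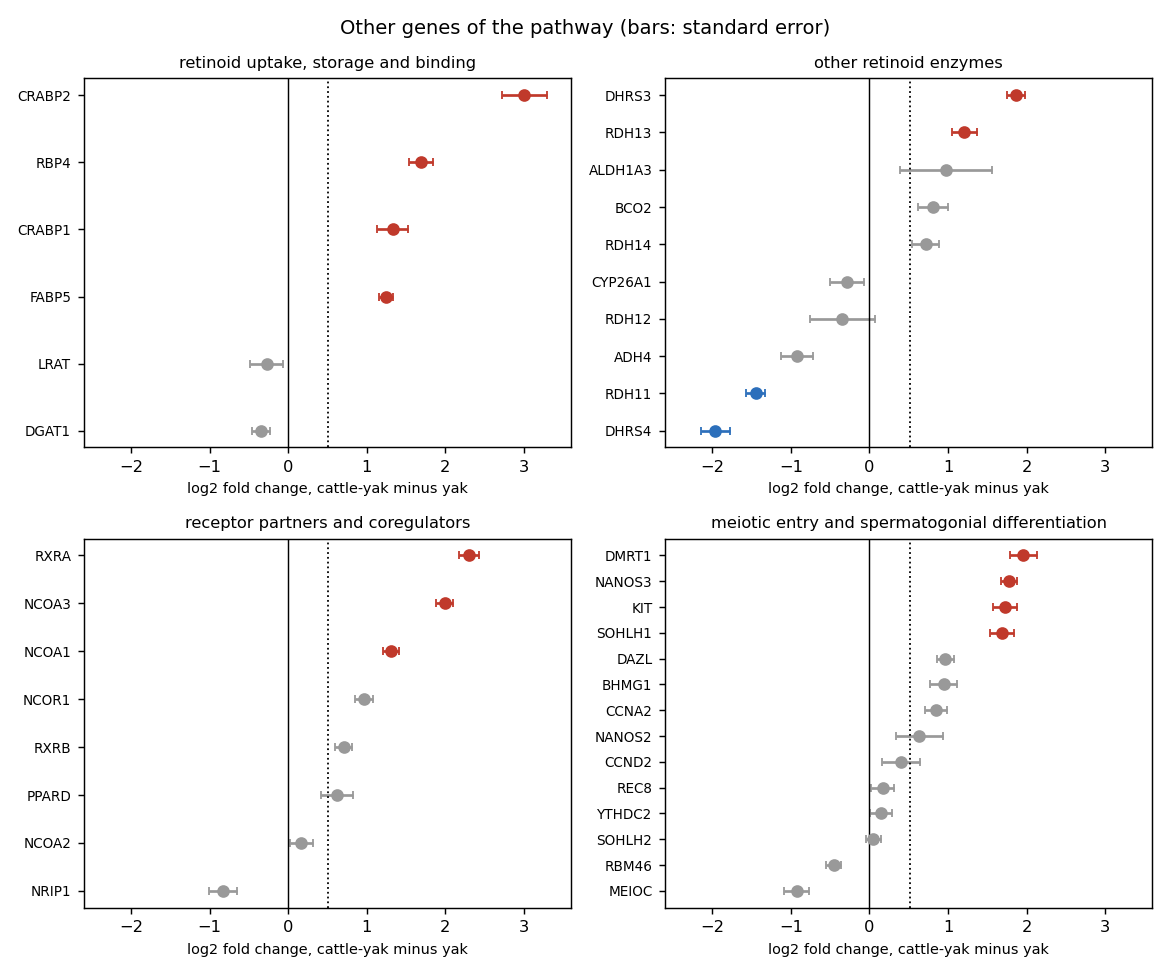
Log2 (foldchange) on the log2 (FPKM + 1) scale with standard errors for the tested genes of 4 lists of the pathway, in red where called higher in cattle-yak, blue where called lower and grey otherwise, with the median of all tested genes (0.51) dotted. As deposited, binding proteins, receptor partners and meiotic entry genes hold calls in 1 direction, and the enzymes hold 2 in each. Over all tested genes 33.4% were called higher and 20.8% lower. After median-of-ratios scaling the receptor partners also held 1 call lower and the meiotic entry genes 2, beside 27.7% of all tested genes called lower.

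The annotation deposited with the table puts 61 genes in the KEGG pathway of retinol metabolism, 5 of them members, and 27 passed the filter on low values. Of the 22 tested genes that are not members 7 were called higher and 7 lower, with a median log2 (foldchange) of −0.28. For this list and the GO lists below, the shares over all tested genes were 33.4% higher and 20.8% lower, with a median of 0.51. ADH5 and ADH6, alcohol dehydrogenases, rose, with log2 (foldchange) values of 2.55 and 2.24. The largest falls were those of CYP3A24 and CYP2C21, cytochrome P450 genes with 34.1 ± 2.54 and 56.8 ± 5.68 FPKM in yak and 0.307 ± 0.039 and 2.97 ± 1.89 in cattle-yak (SD, n = 3). The symbol CYP2C21 stands on a second gene, which was under the minimum. For the GO term cellular response to retinoic acid, 28 tested genes were not members, of which 10 were called higher and 3 lower (KLF4, PTK6 and WNT3), with a median of 0.63. After median-of-ratios scaling, the whole of this list, members included, had 7 genes higher and 8 lower of 33 tested. Over all tested genes the shares after that scaling were 17.7% higher and 27.7% lower. For the term retinoic acid receptor signaling pathway, 3 of 7 tested genes outside the members were called higher and none lower, with a median of 0.70. For response to retinoic acid it was 5 higher and 4 lower of 20, with a median of 0.60, and for retinol dehydrogenase activity 1 higher and 1 lower of 4, with a median of −0.48.

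The genes nearest in pattern were found by the root mean square difference of log2 (FPKM + 1), centred on each gene's mean over the 6 libraries. For ALDH1A2 these were TEX14 (0.04, a symbol on 2 genes), which is needed for the bridges between germ cells, PNPLA7 (0.06) and MCPH1 (0.06). For STRA8 they were TRIM5 (0.04, a symbol on 3 genes), LONRF1 (0.07) and POLR3K (0.07). For the longer ALDH1A1 model they were ERP27 (0.08), CMLKR1 (0.12) and ELK1 (0.13, a symbol on 2 genes). For the shorter one they were SH3BGRL (0.16), QPRT (0.19) and IFITM1 (0.22), and for CYP26B1 they were OGT (0.13), COTL1 (0.14) and NR2F2 (0.14). The neighbours of CYP26B1 and ALDH1A1 were thus farther away than those of ALDH1A2 and STRA8.

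The somatic marker lists moved in the direction of most members. Their median log2 (foldchange) was 2.35 for 12 Sertoli markers, 1.98 for 6 Leydig markers and 1.96 for 7 myoid markers, with every gene of these 3 lists called higher. After median-of-ratios scaling 11 of the 12, 5 of the 6 and all 7 were called higher. The endothelial list had 1.13 (4 of 7 higher, 1 lower, with none higher after that scaling) and the macrophage list 1.03 (3 of 6 higher, 2 lower). Over all tested genes 33.4% were called higher and 20.8% lower, and 17.7% and 27.7% after that scaling. The 7 members called higher lay between 1.03 and 2.11, below the Sertoli median. Shifting the log2 values of each library by its mean over the Sertoli markers takes the same amount off the log2 (foldchange) of every gene. RARB, for example, went from 0.00 to −2.32. Since all 12 markers had been called higher, a fall of every gene was set by this choice. After the shift no member was called higher and 4 were called lower, beside 0.179% and 76.7% of all tested genes. These were ALDH1A2 (−3.93), RARB (−2.32), STRA6 (−1.84) and RDH10 (−1.29), while the ALDH1A1 models (−0.57 and −0.22), CYP26B1 (−0.38), RARG (−0.64), STRA8 (−0.76) and RARA (−0.89) lay between 0 and −1.

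**Figure D5:**
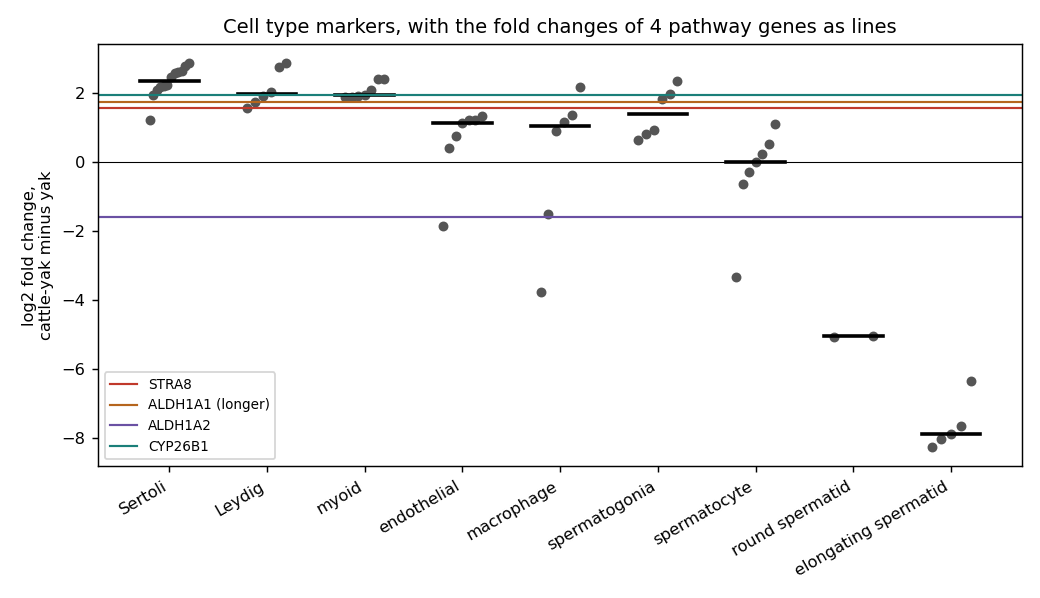
Log2 (foldchange) on the log2 (FPKM + 1) scale of the tested markers of 9 cell types (points) with their medians (black bars), and of STRA8, the longer ALDH1A1 model, ALDH1A2 and CYP26B1 as coloured lines. The lines of STRA8, ALDH1A1 and CYP26B1 run between 1.56 and 1.94, among the somatic and spermatogonia markers, and that of ALDH1A2 at −1.61, between the medians of the spermatocyte (0.00) and round spermatid (−5.06) lists.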

How the data were processed

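Testis RNA of 3 cattle-yak and 3 yak was sequenced by the authors as stranded mRNA libraries with paired-end reads. Per the study's methods, reads were trimmed with Trimmomatic and mapped with HISAT2 to the yak genome LU_Bosgru_v3.0 in both groups, and FPKM was calculated with Cufflinks. The values deposited by the authors are FPKM per gene and animal, without scaling between libraries. The table's columns were matched to animals by title.

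Whole fragments were recovered from the steps between FPKM values for 17973 genes. A step was accepted only where every value lay within 0.03 of a whole number, so that closeness is no check. With the depth fitted to make gene lengths whole, 99.33% of the lengths examined lay within 0.05 of a whole number. Genes averaging 0.5 FPKM or more were fitted with limma 3.58.1 in R 4.3.3 (trend, two-sided) on log2 (FPKM + 1), tested on simulated data beforehand. The simulation changed a small set of genes in random directions, without a shift over all genes. It is therefore no check of calls under such a shift. Within-library ratios, with the 2 ALDH1A1 models summed, were compared by exact permutation over the animals (Python 3.11.15, scipy 1.17.1). For list genes on several rows the most abundant was used. The genes named are the members, the genes of the lists and, for STRA8, ALDH1A2, CYP26B1 and each ALDH1A1 model, the 3 genes nearest in pattern; STRA6L and the KEGG and GO genes were chosen after their values were seen. Members and lists were chosen with earlier results of these data known. Alternatives were other pseudocounts, filters and scalings (TPM included), voom on the fragments, no variance trend, no fold threshold and omission of each animal. Sequences and gene positions were not used here. A gene of the binding list and a gene of the receptor partner list are not reported here and were left out of those counts.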

Additional observations from a re-analysis of the deposited data

How the results depend on the processing

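Some calls of the members depended on the scaling. With TPM 7 members were called higher and 1 lower, as with FPKM. With median-of-ratios scaling 4 members were called higher and 1 lower, and over all genes 2655 were higher and 4173 lower. Centring on the Sertoli markers takes the same amount off the log2 (foldchange) of every gene. Centred in this way, 0 members were higher and 4 lower. Over all genes 27 were then higher and 11541 lower, with a median log2 (foldchange) of −1.81. Under that centring the value of STRA6 reversed to −1.84, RDH10 to −1.29, the longer ALDH1A1 model to −0.57, the shorter to −0.22, CYP26B1 to −0.38, RARA to −0.89, RARB to −2.32, RARG to −0.64 and STRA8 to −0.76. RARB, at 0.00 as deposited, was −0.59 with median-of-ratios scaling, and −0.064, −0.015, −0.004 and −0.047 without TES6, TES7, Yak8 and Yak9, within a range of −0.064 to 0.088 over all omissions. By adjusted p alone 7916 genes were higher. With RARA over RARA plus RARG the difference in share was −5.46 percentage points, and with a pseudocount of 0.1 STRA8 relative to the spermatogonia list was −0.073. Without each animal in turn 6 to 7 members were called higher, the single change being RDH10, and 1 lower. Pseudocounts, filters, voom and the variance trend changed no call of a member, apart from STRA6, which a minimum of 5 FPKM removed. The ratio of ALDH1A2 to ALDH1A1 kept its sign with either ALDH1A1 model alone, an alternative chosen after seeing the data. With 3 animals a group, exact tests cannot go below p = 0.1.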
